A study of Mus musculus with 8 samples.

Results

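The 45 genes described here encode subunits of the 5 complexes of oxidative phosphorylation, enzymes of the tricarboxylic acid (TCA) cycle and 2 regulators of mitochondrial genes, and they were looked up by symbol in the regions where acetylation of histone H3 at lysine 27 (H3K27ac) differed between Nrip1KO and Ctrl myotubes. All 45 symbols were found among the 21911 protein-coding gene symbols of the annotation: 18 of complex I, 4 of complex II, 6 of complex III with cytochrome c, 7 of complex IV, 5 of complex V, the regulators Tfam and Nrf1, and 3 of the TCA cycle. A region was assigned to the protein-coding gene with the start nearest to its centre, and 17 of the 11180 regions were assigned to 10 of the 45 genes. Regions with a centre within 100 kb of a start of one of these genes were collected as well, whichever gene was nearest, and these numbered 64. The rule uses no measured value, but the genes were chosen with earlier results of these data known.

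The cells were primary myotubes, multinucleated muscle cells formed in culture by fusion of satellite cell progeny, from mouse gastrocnemius muscle, and had been differentiated for 4 days. Per the labels, 8 CUT&RUN libraries made 4 groups of 2: Nrip1KO and Ctrl, each with an antibody against H3K27ac, a mark of active promoters and enhancers, and with IgG. Both groups descend from C57BL/6J mice with a floxed Nrip1 gene crossed to Cre mice on C57BL/6JN. Nrip1 encodes the nuclear receptor coregulator RIP140. Nrip1KO animals also carried Cre and Ctrl animals were littermates without it. The study bred lines with Cre under the muscle creatine kinase (MCK) promoter, which is active in heart and skeletal muscle, and under the myogenin promoter. The study's abstract and introduction name the striated muscle line, made with MCK-Cre, as the source of these cells. The labels do not name the line. Nuclei were pooled before being split by antibody, and nothing states that the replicates came from separate animals. The only values analysed are positions in 2 lists, 1 of 3917 regions increased and 1 of 7263 regions decreased in Nrip1KO at the 2-fold threshold the authors set. They hold no level, fold, IgG background or spread between replicates, so depth is unknown, muscle markers could not be read, and a gene without a region may carry any amount of the mark in both groups. At the targeted gene itself, on chromosome 16, 3 decreased and 0 increased regions were nearest to Nrip1, with 2 of their centres inside the gene. The closest centre was 15150 bp from a start. On chromosome 16, 39.0% of genes were nearest to a decreased and 7.70% to an increased region.

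Oxidative phosphorylation passes electrons from NADH and succinate through complexes I to IV of the inner mitochondrial membrane to oxygen, and complex V uses the resulting proton gradient to make ATP. Most of its subunits are encoded in the nucleus and are expressed at high levels in oxidative muscle fibres. Their promoters are known targets of nuclear respiratory factors and estrogen-related receptors, on which PGC-1 coactivators act, and RIP140 is known as a repressor of this program.

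The share of the 45 genes with a region was close to that of all genes. Of the 45, 5 (11.1%, 95% Wilson interval 4.84 to 23.5) were nearest to an increased region, beside 10.7% of all protein-coding genes. Decreased regions were nearest to 7 (15.6%, interval 7.75 to 28.8), beside 17.8% of all genes. Within 100 kb of a start, an increased region was found for 13 (28.9%, interval 17.7 to 43.4) and a decreased region for 18 (40.0%, interval 27.02 to 54.5), beside 24.1% and 42.7% of all genes. Within 1 kb of a start the count was 2 in each direction (4.44%, interval 1.23 to 14.8), beside 2.32% for increased and 2.78% for decreased regions over all genes. Each of these backgrounds lay inside the interval of the 45 genes, and the intervals cover counting error over genes only. The plot of these shares shows the same for both directions.

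**Figure D1:**
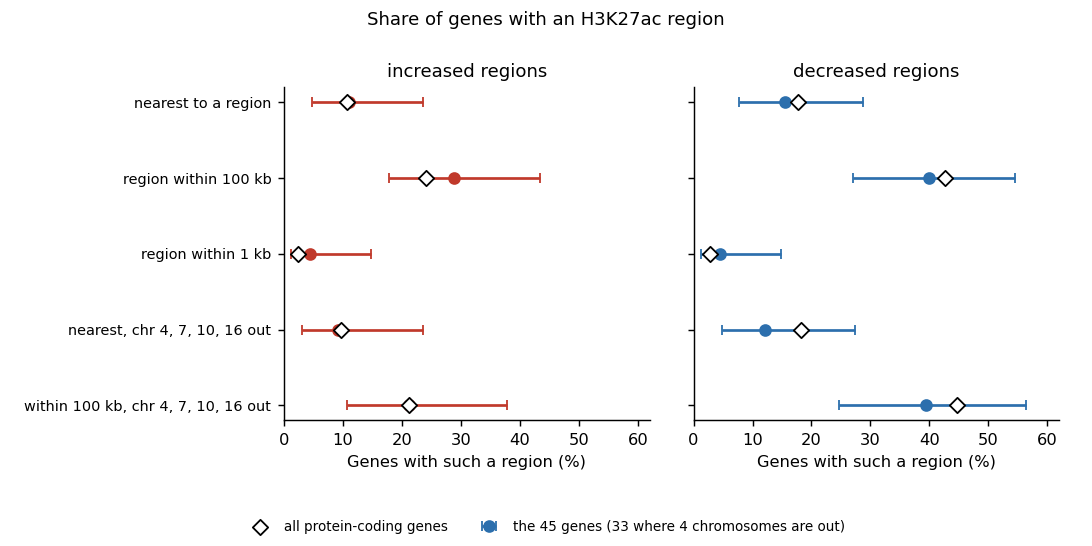
Share of genes (%, x axis) that were nearest to a region or had a region centre within 100 kb or 1 kb of a start, for increased (left) and decreased (right) regions. Filled circles with bars are the 45 genes, or the 33 outside chromosomes 4, 7, 10 and 16, with 95% Wilson intervals, and open diamonds are all protein-coding genes, and every diamond lies within the bar of its row.

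The 17 regions split into 8 increased and 9 decreased, beside 35.0% increased over all regions. Per Mb of sequence nearest to their starts, the 45 genes had 2.15 increased and 2.42 decreased regions, beside 1.44 and 2.66 for all genes. No interval was computed for these rates, which rest on few genes. Ndufs4 held 3 and Uqcrc2, on chromosome 7, held 2 of the 8 increased regions. Ndufs4 and Sdhb held 2 each of the 9 decreased ones. Of the 10 genes Ndufs4 and Nrf1 were nearest to both kinds. The remaining 35 genes were nearest to none. A total of 28 genes had a region within 100 kb, and for Ndufv2, Tfam and Nrf1 both directions lay in that window. For 17 genes there was none within 100 kb: Ndufa4, Ndufa10, Ndufb3, Ndufb5, Ndufb8, Ndufb10, Ndufs1, Ndufs3, Ndufs6, Ndufs7 and Ndufv1 of complex I, Sdha of complex II, Uqcrb and Cyc1 of complex III, Cox5a and Cox6a2 of complex IV, and Idh3a. The median distance to the closest increased region was 277 kb for the 45 genes and 337 kb for all genes, and to the closest decreased region 130 kb and 138 kb.

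**Figure D2:**
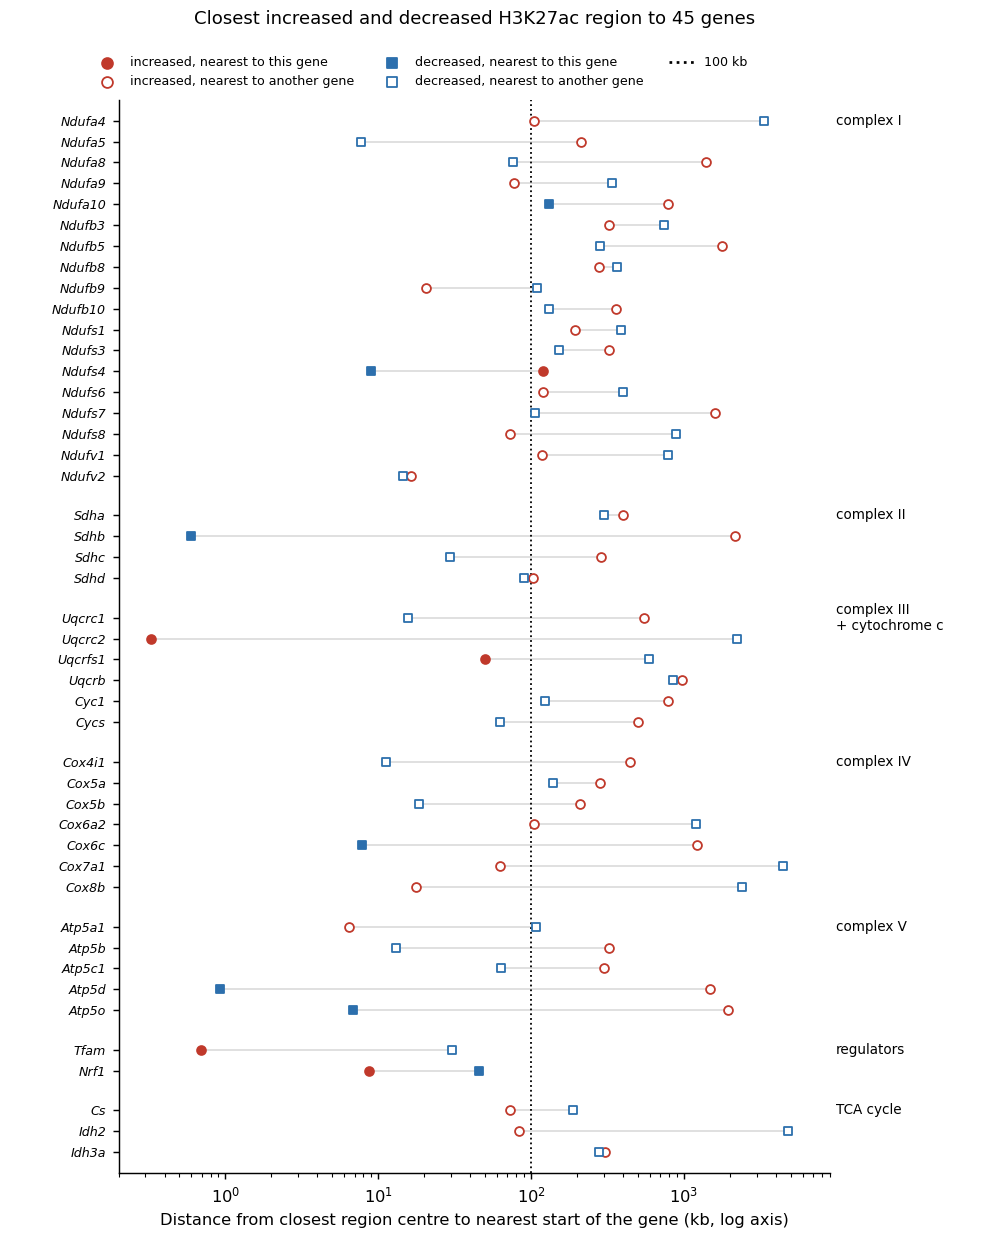
Distance from the closest increased (circles) and decreased (squares) region centre to the nearest start of each of the 45 genes, in kb on a log axis, with genes ordered by complex. Filled symbols mark genes that are the nearest gene to a region of that direction, the dotted line marks 100 kb, and Uqcrc2, Sdhb, Tfam and Atp5d have their closest region at 325, 600, 696 and 918 bp.

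Several chromosomes were lopsided in direction. Chromosome 7 held 973 increased and 23 decreased regions, and chromosome 10 held 453 and 203, whereas chromosome 4 held 66 and 811 and chromosome 16 held 66 and 780. These chromosomes carry 12 of the 45 genes and 5 of the 10 with an assigned region, namely Sdhb on chromosome 4, Uqcrc2 on chromosome 7, Tfam and Atp5d on chromosome 10 and Atp5o on chromosome 16. The direction of the assigned region was the commoner one of its chromosome for Sdhb, Uqcrc2, Tfam and Atp5o, and the rarer one for Atp5d. All 4 genes with a region centre within 1 kb of a start are in this group. Among the 33 genes on other chromosomes, 3 (9.09%) were nearest to an increased and 4 (12.1%) to a decreased region, beside 9.64% and 18.3% of the genes there. Within 100 kb, 7 (21.2%) and 13 (39.4%) had one, beside 21.2% and 44.7%. The part of these chromosome-wide imbalances in the regions at the 45 genes was not tested.

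**Figure D3:**
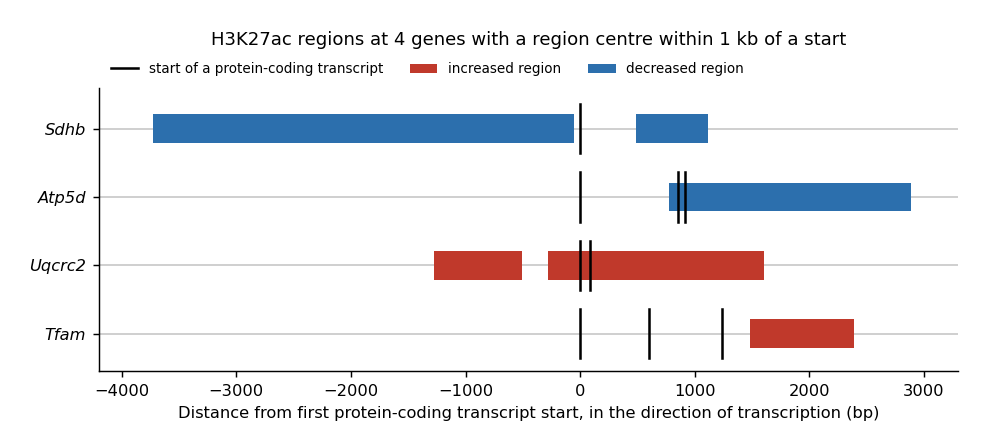
Regions (bars) at Sdhb, Atp5d, Uqcrc2 and Tfam, drawn to scale by distance in bp from the first start of a protein-coding transcript, with transcription running to the right. Vertical ticks are starts of protein-coding transcripts, blue bars are decreased and red bars increased regions, and the bars cover a start at Atp5d and Uqcrc2 but stop short of it at Sdhb and begin after it at Tfam.

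Complex I, the NADH dehydrogenase, takes electrons from NADH. Of its 18 genes, Ndufs4 and Ndufa10 were nearest to a region. An increased region was nearest to 1 (5.56%) and a decreased one to 2 (11.1%), beside 10.7% and 17.8% of all genes. Ndufs4 encodes an accessory subunit needed for a stable and active complex, and its 5 assigned regions were the most for any of the 45 genes. The gene spans chr13:114287795-114388258 on the minus strand. A decreased region of 1285 bp at chr13:114378501-114379785 lay in an intron, 8906 bp downstream of a start, and a decreased region of 626 bp at chr13:114317231-114317856 lay in an intron 70505 bp downstream. The 3 increased regions lay beyond the end of the gene. The region of 2488 bp at chr13:114267121-114269608 was wider than 95.1% of increased regions and was 119684 bp from the start, and one of 501 bp at chr13:114265416-114265916 followed after 1204 bases. The farthest, at chr13:114113160-114113965, was in an intron of Arl15, 274486 bp away. Decreased regions thus lay inside Ndufs4 and increased ones beyond its end, with 47622 bases between the last decreased and the first increased region. The gene is the nearest start for 330.1 kb of the chromosome, compared with a median of 21.9 kb for the 45 genes and 45.1 kb for all genes.

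The sequences at Ndufs4 are shown because the gene had regions of both directions. With the starts of all annotated genes competing, Ndufs4 was nearest to a single decreased region and to no increased one. Without regions over 100 kb from the nearest start, it was nearest to decreased regions only. In the RefSeq promoter (GRCm38.p6, chr13:114388045-114388344, minus strand, 250 bases before to 50 after the start) the capitals mark a match to the YY1 motif downstream of the start. In the windows from the decreased intronic region (chr13:114379648-114379785) and from the widest increased region (chr13:114267371-114267520), both read from GRCm38.p6 on the minus strand, capitals mark a match to the AP-1 motif.
Ndufs4 promoter: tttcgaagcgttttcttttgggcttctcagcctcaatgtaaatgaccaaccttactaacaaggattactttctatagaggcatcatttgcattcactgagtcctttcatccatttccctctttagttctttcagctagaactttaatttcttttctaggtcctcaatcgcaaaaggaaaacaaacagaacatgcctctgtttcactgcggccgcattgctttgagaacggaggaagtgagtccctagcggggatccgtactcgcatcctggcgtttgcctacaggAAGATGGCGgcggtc
Ndufs4 decreased region: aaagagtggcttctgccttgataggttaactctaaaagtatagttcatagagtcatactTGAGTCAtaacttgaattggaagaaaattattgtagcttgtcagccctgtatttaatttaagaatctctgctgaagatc
Ndufs4 increased region: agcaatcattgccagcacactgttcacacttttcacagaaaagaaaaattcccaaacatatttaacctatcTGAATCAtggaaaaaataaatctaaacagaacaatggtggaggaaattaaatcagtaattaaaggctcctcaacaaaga
The promoter shares no base with a region, and both regions hold 1 AP-1 match each over their whole width.

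Ndufa10, an accessory subunit, was nearest to 1 decreased region of 501 bp at chr1:92330316-92330816, which was intergenic and 130151 bp from a start of the gene. Of the other complex I genes, 6 had a region within 100 kb whose nearest gene was another one. For Ndufv2, which encodes an iron-sulfur subunit of the electron input module, a decreased region of 850 bp lay 14401 bp and an increased region of 1217 bp lay 16462 bp downstream of the start, with 1027 bases between them. Both of these centres were within 1 kb of an annotated start of Ankrd12. For the accessory subunit gene Ndufa5 a decreased region was 7703 bp away, at the start of Iqub. Ndufa8 had 2 decreased regions at 76412 and 79386 bp nearest to Mrrf, whose product recycles mitochondrial ribosomes, and the second of these was 3745 bp wide. An increased region lay near Ndufa9 at 77232 bp (nearest to Rad51ap1) and near Ndufs8, an iron-sulfur core subunit, at 72737 bp (nearest to Chka). Ndufb9 had increased regions at 20468 bp, at the start of Mtss1, and at 45759 bp, nearest to Rnf139. In all, 4 of 18 complex I genes had an increased and 4 a decreased region within 100 kb (22.2% each), beside the 24.1% and 42.7% of all genes.

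Complex II, succinate dehydrogenase, joins the TCA cycle to the respiratory chain. Its 4 genes had decreased regions or none: 3 had a decreased and 0 an increased region within 100 kb, beside 42.7% and 24.1% of all genes. Sdhb, the iron-sulfur subunit that carries electrons from succinate oxidation to ubiquinone, starts at position 140961203 of chromosome 4 on the plus strand. A decreased region of 3668 bp at chr4:140957479-140961146 ended 57 bp before this start and was wider than 97.0% of all decreased regions. A second decreased region of 627 bp at chr4:140961690-140962316 began 487 bp after it, inside the gene. The start thus fell in the 543 bases between both regions. A further 7 decreased regions lay 46420 to 99095 bp upstream, 6 of them nearest to Padi2 and 1 to Padi1, peptidylarginine deiminases, so that its 9 decreased regions within 100 kb were the most for any of the 45 genes. On chromosome 4, 66.2% of all genes had a decreased region within 100 kb and 29.3% were nearest to one. The closest increased region to Sdhb was 2139 kb away.

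The Sdhb sequences are shown because they lie at the edges of both decreased regions. The promoter (RefSeq, GRCm38.p6, chr4:140961021-140961320, plus strand) shares its first 126 bases with the wider region. It holds no exact match to the motif letters searched, and near matches were not counted. The first 200 bases of the region inside the gene (GRCm38.p6, chr4:140961690-140961889, plus strand) hold the match of ERR, the estrogen-related receptor motif, in capitals.
Sdhb promoter: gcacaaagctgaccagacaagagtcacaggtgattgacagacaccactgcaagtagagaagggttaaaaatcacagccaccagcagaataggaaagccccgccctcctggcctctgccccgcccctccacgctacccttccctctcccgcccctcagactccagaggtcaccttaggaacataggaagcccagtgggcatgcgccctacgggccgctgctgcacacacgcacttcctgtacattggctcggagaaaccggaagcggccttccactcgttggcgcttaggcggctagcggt
Sdhb decreased region: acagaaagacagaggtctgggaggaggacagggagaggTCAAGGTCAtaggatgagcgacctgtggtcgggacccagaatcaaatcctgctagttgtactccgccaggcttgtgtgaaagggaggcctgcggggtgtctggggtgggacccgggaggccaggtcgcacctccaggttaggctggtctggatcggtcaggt
This was the only ERR match over the whole width of the 17 regions. It begins at position 140961728, outside the central 500 bases of the region.

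The anchor subunit gene Sdhc had decreased regions 29317 bp downstream, at the start of Cfap126, and 33272 bp upstream, in an intron of Pcp4l1. Sdhd, the other membrane anchor, had them at 90371 bp (nearest to Pts) and 96585 bp (at the start of Dixdc1), and its closest increased region was 102542 bp away. Sdha, the flavoprotein subunit that oxidises succinate, had its closest decreased region at 297863 bp.

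Complex III hands electrons from ubiquinol to cytochrome c. Of the 6 genes of this group, Uqcrc2 and Uqcrfs1 were nearest to increased regions, beside 10.7% of all genes. A decreased region was nearest to 0 of the 6, beside 17.8% of all genes. Uqcrc2 encodes core protein 2 and starts at position 120635176 of chromosome 7 on the plus strand. The increased region of 1886 bp at chr7:120634897-120636782 had been joined from 2 peaks and ran from -279 to 1606 bp relative to this start. Another increased region of 774 bp at chr7:120633898-120634671 lay 225 bases upstream of it, with its centre inside the annotated gene Gm45112. Further downstream, 3 increased regions at 33140, 34250 and 70561 bp were in introns of Mosmo. On chromosome 7, 56.2% of all genes had an increased region within 100 kb and 19.8% were nearest to one. For decreased regions these shares were 3.51% and 1.04%.

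Uqcrfs1, the Rieske iron-sulfur protein, was nearest to 1 increased region of 1623 bp, joined from 2 peaks, at chr13:30494716-30496338. It was intergenic and 49835 bp downstream of the start at position 30545362. Outside chromosomes 4, 7, 10 and 16 it was the only one of the genes with an increased region and no decreased region assigned. The sequences show its promoter (RefSeq, GRCm38.p6, chr13:30545267-30545566, minus strand), with a CREB match in capitals, and 200 bases around an E-box match in the region (GRCm38.p6, chr13:30495505-30495704, minus strand), with the E-box matches in capitals.
Uqcrfs1 promoter: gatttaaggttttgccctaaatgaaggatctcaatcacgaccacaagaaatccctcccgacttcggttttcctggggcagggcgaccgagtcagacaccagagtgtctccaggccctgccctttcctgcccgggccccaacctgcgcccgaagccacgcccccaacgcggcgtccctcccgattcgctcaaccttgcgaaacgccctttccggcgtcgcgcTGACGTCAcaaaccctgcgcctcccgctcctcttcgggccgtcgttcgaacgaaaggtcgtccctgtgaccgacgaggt
Uqcrfs1 increased region: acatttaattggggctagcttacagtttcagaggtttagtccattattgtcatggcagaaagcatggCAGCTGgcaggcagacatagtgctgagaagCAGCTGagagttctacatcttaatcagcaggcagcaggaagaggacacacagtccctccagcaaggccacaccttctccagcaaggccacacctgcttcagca
The whole region holds 3 E-box matches and 1 AP-1 match.

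Uqcrc1, core protein 1, had 3 decreased regions at 15727, 18569 and 72143 bp downstream, nearest to Col7a1, Col7a1 and Pfkfb4. Cycs, the somatic cytochrome c that shuttles electrons to complex IV, had a decreased region of 2620 bp 62918 bp upstream, nearest to Npvf. Both core protein genes therefore had regions in reach, increased at Uqcrc2 and decreased at Uqcrc1. For Uqcrb and Cyc1 the closest regions were decreased ones at 852664 and 123833 bp.

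Complex IV, cytochrome c oxidase, passes electrons to oxygen. Of its 7 genes only Cox6c, a nuclear-encoded subunit, was nearest to a region, and this was decreased (14.3%, beside 17.8% of all genes). The region of 1783 bp at chr15:35926577-35928359 lay in an intron 7863 bp downstream of a start at position 35935331, near the end of the gene, which overlaps Vps13b. Near Cox4i1, a subunit of the ubiquitously expressed form, a decreased region of 635 bp lay 11236 bp upstream. Its centre was in an annotated exon, inside the overlapping genes Emc8, Gm20388 and Gm27021. The nearest coding start to this region was that of 1190005I06Rik. Cox5b had 3 decreased regions, at 18429 and 43779 bp in introns of Fam178b and at 75940 bp at the start of Zap70. The subunit isoforms of heart and skeletal muscle, Cox6a2, Cox7a1 and Cox8b, all lie on chromosome 7. Cox7a1 had increased regions at 62468 and 88130 bp, at the starts of the zinc finger genes Zfp382 and Zfp260. Cox8b had them at 17731 and 44772 bp, at the starts of Psmd13 and Bet1l. Cox6a2 had its closest increased region just outside the window, at 103781 bp. None of the 3 muscle isoform genes was the nearest gene to a region.

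Complex V, the ATP synthase, had decreased regions within 100 kb of 4 of its 5 genes, beside 42.7% of all genes. Atp5b and Atp5d lie on chromosome 10, where 36.8% of genes had such a region, and Atp5o on chromosome 16, where 72.5% did. Atp5d, the delta subunit of the rotating central stalk, was nearest to a decreased region of 2110 bp at chr10:80142233-80144342. The first protein-coding transcript of Atp5d starts at position 80141457 on the plus strand, 776 bp before the region, and the other protein-coding starts at 80142315 and 80142370 lie inside it. The region is wider than 88.8% of decreased regions, on a chromosome where 14.1% of genes were nearest to a decreased and 19.2% to an increased region. A further 4 decreased regions lay 48841 to 95164 bp upstream, nearest to Sbno2 (2 regions), Gpx4 and Polr2e. The promoter of Atp5d (RefSeq, GRCm38.p6, chr10:80142065-80142364, plus strand) is shown because its last 132 bases lie in the decreased region. None of the motifs searched matched it exactly.
Atp5d promoter: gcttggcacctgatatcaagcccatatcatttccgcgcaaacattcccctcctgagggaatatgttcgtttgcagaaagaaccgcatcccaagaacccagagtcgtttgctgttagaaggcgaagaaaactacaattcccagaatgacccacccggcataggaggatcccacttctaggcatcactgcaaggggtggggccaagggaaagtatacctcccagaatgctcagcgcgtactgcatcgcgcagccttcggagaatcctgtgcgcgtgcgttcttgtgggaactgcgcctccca
Of the 38 promoters that the RefSeq table holds for the 45 genes, this one, the overlapping second Atp5d promoter (92 bases shared) and that of Sdhb were the 3 that shared a base with a decreased region (7.89%, interval 2.72 to 20.8), beside 1.23% of all 21262 protein-coding promoters. With an increased region 0 of the 38 did (upper limit of the interval 9.18%), beside 0.894%, but Uqcrc2, whose start lies in an increased region, is not among the genes with a promoter in the table. The 3 promoters belong to only 2 genes, and both Atp5d promoters meet the same region. The interval counts them as separate and so understates the spread. Sdhb lies on chromosome 4, where 29.3% of genes were nearest to a decreased region.

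Atp5o encodes the oligomycin sensitivity protein of the peripheral stalk. Its decreased region of 986 bp at chr16:91938004-91938989 was 6810 bp upstream of the start at position 91931687, in an intron of D430001F17Rik. Within 100 kb, 3 decreased regions nearest to Itsn1 lay 27588 to 82657 bp downstream, inside Itsn1 and a second annotated record of Atp5o that spans it, and 1 lay 87844 bp upstream nearest to Mrps6, a protein of the mitochondrial ribosome. On chromosome 16, 72.5% of genes had a decreased region within 100 kb. Atp5b, the catalytic beta subunit, had decreased regions at 13062 bp in an intron of Baz2a and at 62080 bp in an intron of Rbms2. Atp5c1, the gamma subunit at the centre of the stalk, had one at 63762 bp in an intron of Taf3. Atp5a1, the alpha subunit, had increased regions at 6425 bp, at the start of Haus1, and at 93146 bp, nearest to Epg5.

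Both regulators were nearest to an increased region and Nrf1 also to a decreased one, beside 10.7% and 17.8% of all genes. On chromosome 10, which carries Tfam, 19.2% of genes were nearest to an increased region. On chromosome 6, which carries Nrf1, 11.0% were nearest to an increased and 18.1% to a decreased region. Tfam, which packages mitochondrial DNA and starts its transcription, had an increased region of 910 bp at chr10:71235891-71236800. On the minus strand the gene starts at position 71238280, and the region began 1480 bp downstream of that start and 242 bp downstream of an alternative coding start at 71237042. A decreased region of 658 bp lay 30424 bp upstream in an intron of Ube2d1. Nrf1, nuclear respiratory factor 1, activates nuclear genes for the respiratory chain and Tfam. An increased region of 501 bp at chr6:30107119-30107619 lay in an intron, 8746 bp upstream of the alternative start at 30116115 and 59381 bp downstream of the first start, both measured from its centre. A decreased region of 501 bp at chr6:30161428-30161928 lay beyond the end of the gene, which is at position 30153458, and 45563 bp from the same alternative start. Measured from the first start at 30047988, the edge of that decreased region is 113440 bp away.

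The printed windows are those of the increased Tfam region around its E-box (GRCm38.p6, chr10:71235969-71236168, minus strand) and the middle of the decreased Nrf1 region (GRCm38.p6, chr6:30161528-30161827, plus strand). Capitals mark E-box matches.
Tfam increased region: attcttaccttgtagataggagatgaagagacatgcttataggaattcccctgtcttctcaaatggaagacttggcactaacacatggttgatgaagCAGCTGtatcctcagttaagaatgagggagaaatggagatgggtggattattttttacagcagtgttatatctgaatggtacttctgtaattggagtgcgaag
Nrf1 decreased region: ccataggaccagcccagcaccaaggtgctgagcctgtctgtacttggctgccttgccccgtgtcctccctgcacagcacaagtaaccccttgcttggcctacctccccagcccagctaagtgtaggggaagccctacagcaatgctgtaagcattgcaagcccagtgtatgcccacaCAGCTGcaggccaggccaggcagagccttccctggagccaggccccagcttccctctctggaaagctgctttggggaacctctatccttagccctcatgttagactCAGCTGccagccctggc
The Nrf1 region holds 3 E-box matches in its 501 bases, 2 of them in the window shown, and the Tfam region holds 1 in 910 bases. GC content is 56.7% in the Nrf1 and 37.6% in the Tfam region, the highest and the lowest of the 17.

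The 3 TCA cycle genes were nearest to no region, beside 10.7% (increased) and 17.8% (decreased) of all genes. Cs, citrate synthase, which makes citrate at the entry of the cycle, had an increased region 72967 bp downstream at the start of Nabp2. Idh2, the NADP-dependent mitochondrial isocitrate dehydrogenase, had one 83744 bp upstream at the start of Sema4b. Idh3a, the catalytic subunit of the NAD-dependent enzyme, had its closest region, a decreased one, at 277498 bp.

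Of the 64 regions within 100 kb of one of the 45 genes, 51 were nearest to a different gene and 13 to the gene itself. Of those 51, 10 of the 16 increased regions and 8 of the 35 decreased regions had their centre within 1 kb of the other gene's start. Over all regions, 15.2% of increased and 11.2% of decreased ones had a centre within 1 kb of an annotated start. How often regions around other genes are nearest to a different gene was not counted. Compared with the 45 genes' own starts, these 51 regions lay 6.43 to 93.1 kb (increased) and 7.70 to 99.1 kb (decreased) away.

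The other genes of these pathways were counted in 6 further lists of 145 annotated genes. Together, 8 (5.52%) were nearest to an increased and 25 (17.2%) to a decreased region, beside 10.7% and 17.8% of all genes. Of 40 further respiratory chain subunits, 0 were nearest to an increased and 6 to a decreased region. Among these, Cox6a1, the widely expressed isoform of the complex IV subunit that Cox6a2 replaces in muscle, had a region of 1059 bp centred 32 bp from a start, and Atp5j, coupling factor 6 of the ATP synthase stalk, one of 753 bp at 235 bp. Atp5l (2253 bp), Atp5g1 (10550 bp), Ndufb4 (3 regions, the closest at 21732 bp) and Atp5g3 (152918 bp) had theirs farther away. Of 40 assembly factors, 2 were nearest to an increased region, Ndufaf6 at 40055 bp and Cox10 at 56836 bp, and 6 to a decreased one. The decreased region of the copper protein gene Cox19 was 3169 bp wide and centred 290 bp from a start, and those of Sco1, Uqcc1, Cox17, Lyrm7 and Sdhaf3 were 2463 to 74056 bp away.

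Of 22 further TCA cycle and pyruvate dehydrogenase genes, 3 (13.6%) were nearest to an increased and 6 (27.3%) to a decreased region. The shares of all genes were 10.7% and 17.8%, for this list and those that follow. Increased regions were nearest to Suclg2 (9862 bp), Fh1 (45853 bp) and Pdha1 (96128 bp). Decreased ones were nearest, among others, to Mpc1, of the mitochondrial pyruvate carrier (2585 bp), Pdk1 (8043 bp), Pdhb (12988 bp), Pdk4, which inhibits pyruvate dehydrogenase (13693 bp), and Fh1 (18741 bp). The 14 genes of mitochondrial DNA maintenance and transcription were nearest to 0 regions in either direction. Within 100 kb, 8 of them (57.1%) had a decreased and 3 (21.4%) an increased region, beside 42.7% and 24.1% of all genes. Of 16 biogenesis regulators, 2 (12.5%) were nearest to an increased region, the deacetylase gene Sirt1 at 1007 bp and the coactivator gene Ppargc1a (PGC-1alpha) at 70556 bp. Decreased regions were nearest to 4: Ppargc1b (6412 bp), Ppara (22746 bp), Esrrg (61324 bp) and Ppargc1a, with 4 regions from 203133 bp away. Of 13 genes of mitochondrial dynamics and contact sites, the contact site gene Chchd3 was nearest to regions of both directions (decreased at 6901 bp, increased at 74907 bp), and Opa1, a fusion gene (8147 bp), and Chchd6 (10607 bp) to decreased ones.

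**Figure D4:**
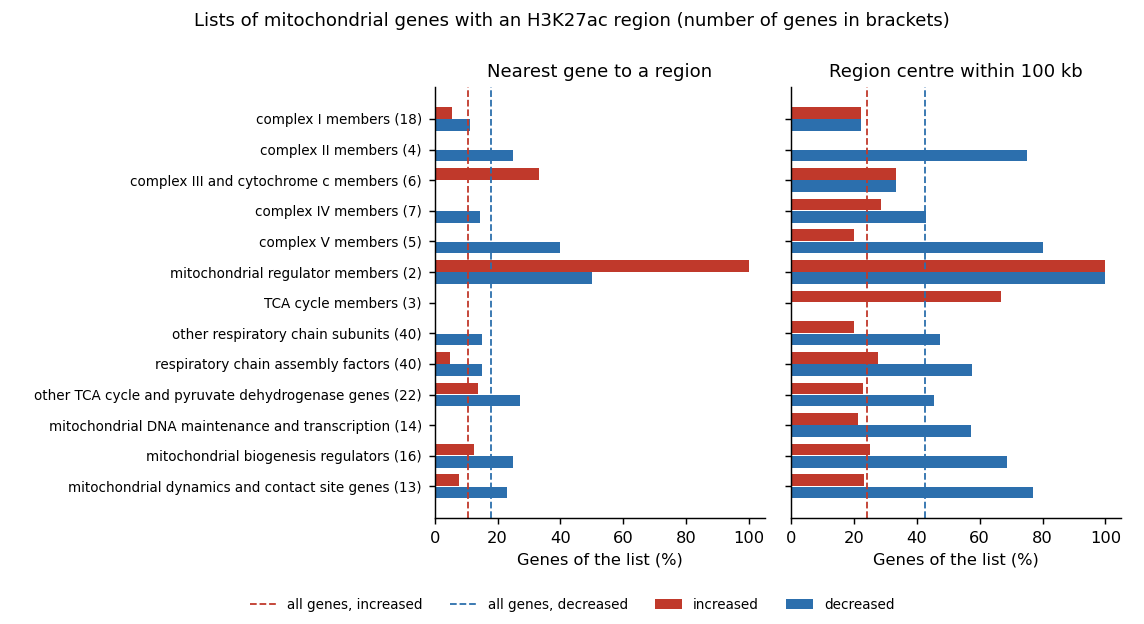
Share of each list's genes (%, x axes from 0) that were nearest to a region (left) or had a region centre within 100 kb (right), with red bars for increased and blue bars for decreased regions and the number of genes in brackets. Dashed lines are the shares of all protein-coding genes, and the groups of 2 to 7 genes move in steps of 1 gene, so that 100% for the regulators stands for 2 genes.

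Promoter sequence was compared with all genes for the 34 of 45 genes that matched the RefSeq table. The others were Ndufb9, Ndufs1, Sdhc, Uqcrc2, Uqcrb, Cyc1, Cox4i1, Cox6a2, Cox6c, Atp5a1 and Idh3a. The median GC content was 58.5% for the 38 promoters of these genes and 56.3% for 21262 protein-coding promoters, and the median number of CpG was 19.5 and 13. The motifs searched on both strands were ERR (TCAAGGTCA), NRF1 (GCGCATGCG), ETS (CCGGAAGTG), CREB (TGACGTCA), YY1 (AAGATGGCG), the E-box form CAGCTG and AP-1 (TGANTCA, where N is any base), and none contains another, although single matches can overlap. Only exact matches to these letters were counted, so sites that differ by a base were missed. YY1 matched in 4 of 38 promoters (10.5%, all promoters 1.83%), those of Ndufa9, Ndufs4, Ndufs6 and Ndufs7. All 4 belong to complex I, which supplies 18 of the 45 genes. NRF1 matched in 3 (7.89%, all 2.35%), those of Cycs, Ndufa8 and Uqcrc1, and CREB in 3 (7.89%, all 2.23%), those of Cycs, Ndufa10 and Uqcrfs1. ERR matched in 1 (2.63%, all 0.334%), that of Sdhd. ETS matched in 1 (2.63%, all 2.71%), AP-1 in 3 (7.89%, all 6.99%) and the E-box in 5 (13.2%, all 15.6%). Among genes nearest to a region, the matches were YY1 at Ndufs4 and CREB at Ndufa10 and Uqcrfs1.

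**Figure D5:**
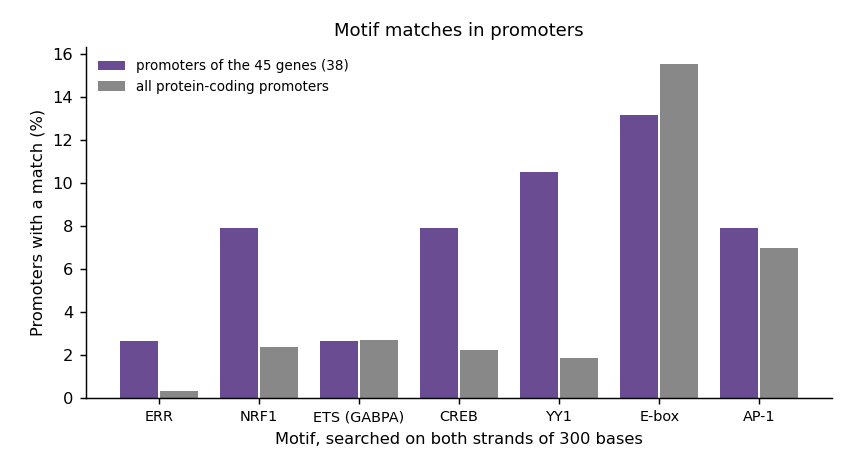
Share of promoters (%, y axis from 0) that hold a match of each motif on either strand, for the 38 promoters of the 45 genes (purple) and for all protein-coding promoters (grey). The purple bars for NRF1, CREB and YY1 stand for 3, 3 and 4 promoters, and no test was made.

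In the central 500 bases of the 17 regions the E-box matched in 5 (29.4%), beside 34.7% of all 11179 regions on assembled chromosomes. The other 6 motifs matched in 0 of 17 central windows, beside 20.2% of all regions for AP-1, 1.22% for ERR and at most 0.224% for NRF1, ETS, CREB and YY1. Over the whole width, 9 of the 17 regions held an E-box match, with 6 in the wide Sdhb region, where 1 of them overlapped an AP-1 match. AP-1 matched in 4 regions over the whole width. The median GC content was 40.5% for the 8 increased and 51.3% for the 9 decreased regions, beside 43.1% and 47.9% of all increased and decreased regions. Of the 8 increased regions 3 (37.5%) and of the 9 decreased regions 2 (22.2%) were promoter-proximal, with a centre within 1 kb of an annotated start, beside 15.2% and 11.2% of all regions. All 5 of these lie on chromosomes 4, 7 and 10.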

How the data were processed

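H3K27ac and IgG CUT&RUN libraries of Nrip1KO and Ctrl myotubes were analysed from 2 lists of positions. The authors aligned paired reads to mm10 with BWA-MEM2 (BWA 2.2.1 in the submitters' processing notes), called broad peaks with HOMER 4.11 and took a difference of 2-fold or more in peak intensity. How replicates and IgG entered is not stated. The labels and the methods name different H3K27ac antibodies. The deposited files give starts and ends, and the deposited score, which is 1 in every region, was not used. Depth per library is unknown.

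Centres were assigned to the nearest start of any transcript of a protein-coding gene (GENCODE M21). Placement and motif search were tested on simulated positions and planted matches, with Python 3.11.15, pandas 2.3.3 and pysam 0.24.0. Wilson intervals came from scipy 1.17.1. No test across samples or genes was made. The genes and the 6 other lists were chosen with earlier results of these data known. Every gene with a region nearest or within 100 kb is named, as is each gene of the other lists that was nearest to a region, except 1 that is not reported here by name.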

Additional observations from a re-analysis of the deposited data

How the results depend on the processing

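Of 44 recounts under other settings, 27 stayed within 1.5 times the reported count and 17 did not. With the starts of all annotated genes competing, the increased and decreased regions nearest to one of the 45 genes numbered 4 and 4 instead of 8 and 9, and genes nearest to a decreased region 4 instead of 7. Ndufs4 then had no increased and Nrf1 no decreased region, so that neither was nearest to both kinds. The 4 increased regions fell to 4 genes and the 4 decreased ones to 4 genes, so that Uqcrc2, Sdhb and Ndufs4 each kept a single region. With regions of at least 1 kb only, the regions numbered 3 and 4, the nearest genes 3 (of 5, increased) and 4 (of 7, decreased), and the genes with a region within 100 kb 6 (of 13, increased) and 11 (of 18, decreased). Without chromosomes 4, 7, 10 and 16, the regions numbered 5 and 5, the nearest genes 3 and 4, and the genes with an increased region within 100 kb 7. Leaving out regions over 100 kb from the nearest start gave 5 increased regions, none of them at Ndufs4. A window of 50 kb gave 8 genes with an increased region and a window of 200 kb gave 20. The share of all genes was recounted only without chromosomes 4, 7, 10 and 16. The counts under the other settings therefore have no background to set beside them. With only the 5-prime end of each gene record as its start, Atp5a1 and Ndufb9 joined the genes nearest to an increased region, and Atp5d and Ndufa10 left those nearest to a decreased one. Starts of protein-coding transcripts only, chosen after seeing the data, gave the same genes. No paired analysis was possible because the lists hold no value per library, and for the same reason no replicate could be left out. Without depth, a region missing at a gene cannot be told apart from a difference under the threshold.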
